A study of Homo sapiens with 2 samples.

Results

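The core proteins of proteoglycans were followed in ovarian carcinoma cells with and without knockdown of the transcription factor RUNX2. These were serglycin (SRGN), the syndecans SDC1, SDC2, SDC3 and SDC4, glypican-1 (GPC1), versican (VCAN), decorin (DCN), biglycan (BGN) and perlecan (HSPG2). Probes were taken when the RefSeq accession printed on the array belonged to 1 of these 10 genes, which gave 12 of the 41000 probes and 10 of the 17240 genes that could be named. SDC1 and SDC4 had 2 probes each and the other genes had 1. The set was chosen by the measured log2 ratio of SRGN, which was among the strongest decreases on these arrays, so the values of SRGN are given as a description.

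SKOV3 is an established human ovarian adenocarcinoma line. The clone cl-sh3 was infected with a lentivirus made from the pLKO.1-puro vector with a short hairpin RNA against RUNX2, and the control clone, called mock-transfected, received the same vector with a scramble sequence. Both were selected with puromycin, and each is a single clone, so that an effect of the knockdown and a difference between clones cannot be told apart. Labelled RNA of both clones was put together on Agilent whole human genome arrays. RNA of cl-sh3 was labelled with the dye Cy5 in hybridization 1 and with Cy3 in hybridization 2, and the control took the other dye each time. The labels name the same pair of clones for both and do not say whether the RNA was extracted once or separately, so the hybridizations were treated as a technical dye swap and counted as 1 replicate. No test between the clones was made on that basis, and no p-value is given. The distance between the hybridizations holds technical error and, if the RNA was extracted separately, the difference between extracts. A probe was called higher or lower when the clones differed at least 2-fold in the same direction in both hybridizations.

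Proteoglycans are proteins that carry long sulfated sugar chains, the glycosaminoglycans. Serglycin packs the contents of secretory granules in blood cells and is also released by other cells. Syndecans span the plasma membrane and glypicans are tied to it by a lipid anchor, and their heparan sulfate chains hold growth factors near their receptors. Versican, decorin, biglycan and perlecan lie in the extracellular matrix, where versican binds hyaluronan, decorin and biglycan bind collagen, and perlecan belongs to basement membranes.

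The arrays held 36060 probes with a value in both hybridizations and with at least 1 RNA that was well above background in both. All 12 proteoglycan probes were among them, and each was well above background in both RNAs on both arrays. No spot was saturated. Over all 36060 probes the median of the mean log2 ratio was 0.01, with 90% of probes between -0.54 and 0.43. The hybridizations differed by a median of 0.22 on the log2 scale, and by less than 0.63 for 95% of the probes. All 8 genes listed as markers of carcinoma cells were well above background in both clones, among them the keratin KRT19, the adhesion protein EPCAM and the receptor ERBB2. So were 12 of 13 blood cell, 6 of 7 fibroblast and 5 of 5 endothelial markers in cl-sh3. Of all probes, 88.0% were kept, so the count does not set carcinoma cells apart. For the same reason, a signal well above background does not by itself show that a member is expressed.

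RUNX2, the target of the hairpin, had 3 probes. The brightest (A_32_P161762, NM_004348) gave a normalised signal of 696.0 in cl-sh3 against 2856 in the control in hybridization 1, and of 792.7 against 1959 in hybridization 2. Both values of cl-sh3 lay below both control values. Its log2 ratios were -2.04 and -1.30, a mean of -1.67 or 3.18-fold lower. A dimmer probe for the same accession (A_24_P69267) gave 0.17 and -0.13. A last probe, A_32_P148058, for the accession NM_001015051, gave -0.29 and -0.17 and was not well above background in the control of hybridization 2. The fall of the target was thus read by 1 of its 3 probes.

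SRGN was the only member that changed at least 2-fold. Its probe (A_23_P86653, NM_002727) gave a normalised signal of 1234 in cl-sh3 against 7649 in the control in hybridization 1. In hybridization 2 the values were 1485 and 5815. Both cl-sh3 values lay far below both control values. The log2 ratios were -2.63 and -1.97, which is 6.20-fold and 3.92-fold lower, and the mean of -2.30 is 4.93-fold lower. The distance of 0.66 between the hybridizations was larger than that of 96.1% of the probes, but it was small against the fall itself. In RNA of whole cultures, fewer cells with SRGN and less SRGN RNA per cell cannot be told apart. The scanner software gave errors of 0.31 and 0.29 for these log2 ratios.

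Before any correction the SRGN spot read 1805 in cl-sh3, over a local background of 185, and 5795 in the control, over 47. With the dyes reversed it read 1459 over 43 in cl-sh3 and 6123 over 167 in the control. The control was thus the brighter RNA in either dye before normalization. By mean log2 ratio SRGN was the fifth lowest of the 36060 probes. Probes without a gene name are passed over in what follows. The named probes nearest to SRGN in that order, over the same hybridizations, were the collagenase MMP1 (-2.86), G0S2 (-2.57) and the cytokine IL1A (-2.45) below it. Above it stood EDIL3 (-2.25), the collagenase MMP13 (-2.24) and the asparagine synthetase ASNS (-2.08).

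**Figure D1:**
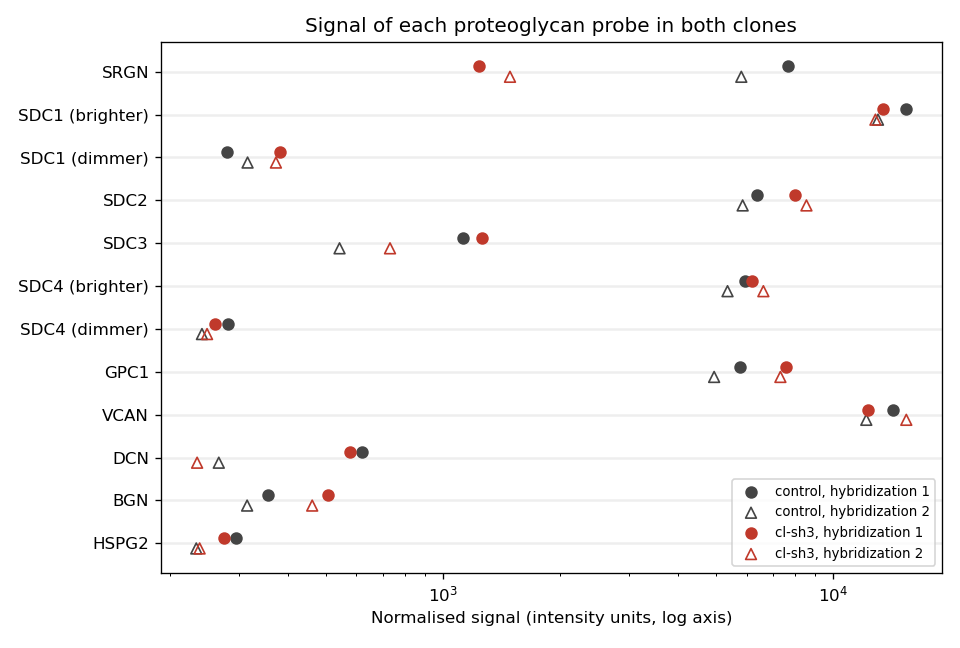
Normalised signal (intensity units, log axis) of each proteoglycan probe in the control (grey) and cl-sh3 (red), as circles for hybridization 1 and triangles for hybridization 2. SRGN is the only row in which the clones stand far apart, at 1234 and 1485 in cl-sh3 against 7649 and 5815 in the control. Rows are different probes, so their levels cannot be compared with each other.

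Among the cell-surface members, the single SDC2 probe (A_24_P380734, NM_002998) read 7988 in cl-sh3 and 6382 in the control in hybridization 1, then 8541 and 5861 in hybridization 2. Both cl-sh3 values lay above both control values. Its log2 ratios were 0.32 and 0.54, a mean of 0.43 or 1.35-fold, short of the 2-fold rule.

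GPC1 (A_23_P209904, NM_002081), the glypican of the set, read 7548 in cl-sh3 and 5785 in the control, then 7324 and 4953. The cl-sh3 values again lay above both control values. Its log2 ratios of 0.38 and 0.56 had a mean of 0.47, or 1.39-fold, and 4.04% of all probes had a higher mean.

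SDC3 (A_23_P74887, NM_014654), a syndecan best known from the nervous system, read 1262 in cl-sh3 and 1126 in the control in hybridization 1, and 731.4 and 543.0 in hybridization 2. Both clones were dimmer in the second hybridization, so the ranges of the clones overlapped, although cl-sh3 was the brighter RNA on each array. The log2 ratios were 0.16 and 0.43, a mean of 0.30.

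SDC1, the main syndecan of epithelial cells, had a pair of probes for 1 accession (NM_001006946) that disagreed in sign. The brighter probe (A_23_P16944) read 13444 in cl-sh3 against 15414 in the control, then 12833 against 13027, with log2 ratios of -0.20 and -0.02. The dimmer probe (A_24_P97129) read 382.9 against 279.9, then 373.0 against 315.5, with log2 ratios of 0.45 and 0.24. The mean was -0.11 for the brighter probe, with cl-sh3 below the control on each array but overlapping signals across arrays. It was 0.35 for the dimmer probe, with cl-sh3 above the control in both hybridizations. The dimmer SDC1 probe moved between 0.28 and 0.56 over 7 other ways of processing the ratios.

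SDC4, a syndecan of cell-matrix contacts, also had a pair of probes for its accession (NM_002999). The brighter one (A_23_P109034) read 6186 in cl-sh3 and 5928 in the control, then 6624 and 5361. Its log2 ratios were 0.06 and 0.31, a mean of 0.18. The dimmer probe (A_24_P373976) gave -0.11 and 0.04, with a mean of -0.03 that turned positive in 3 of 7 other ways of processing, so it has no settled sign.

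Together the 7 probes of the syndecans and GPC1 had a median log2 ratio of 0.30, between -0.11 and 0.47. Of these, 5 were higher in cl-sh3 in both hybridizations by any amount, 1 was lower and 1 had opposite signs. Over all probes, 29.8% were higher and 27.3% lower by that loose reading. None of the 7 reached 2-fold in either hybridization. The hybridizations lay 0.15 to 0.27 apart for these probes, and all but the dimmer SDC1 probe read higher in hybridization 2. The software's error for a single log2 ratio of members other than SRGN was between 0.20 and 0.28.

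Among the secreted matrix members, BGN (A_23_P34126, NM_001711) stood highest. It read 507.8 in cl-sh3 and 356.9 in the control, then 462.1 and 314.7, and both cl-sh3 values lay above both control values. Its log2 ratios of 0.51 and 0.55 differed by only 0.05, the closest pair of the set, with a mean of 0.53 or 1.45-fold. A higher mean was seen for 2.99% of all probes, and other processing gave between 0.53 and 0.64.

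DCN (A_23_P64873, NM_001920), a small leucine-rich proteoglycan like BGN, did not share that position. It read 578.0 in cl-sh3 and 621.2 in the control, then 234.3 and 266.3, with log2 ratios of -0.10 and -0.18. On each array cl-sh3 was the dimmer RNA, but the signals of the clones overlapped across arrays, since both were dimmer in hybridization 2.

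VCAN (A_23_P144959, NM_004385) read 12285 in cl-sh3 and 14271 in the control, then 15397 and 12159. The order of the clones turned with the dyes, and the log2 ratios of -0.22 and 0.34 lay further apart than those of 91.6% of the probes. Its mean of 0.06 therefore gives no direction.

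HSPG2 (A_23_P23191, NM_005529) read 274.8 in cl-sh3 and 294.8 in the control, then 237.8 and 233.1, with overlapping clones. Its log2 ratios were -0.10 and 0.03, and the sign of its mean, -0.04, turned in 1 of 7 other ways of processing. The 4 matrix probes had a median of 0.01.

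**Figure D2:**
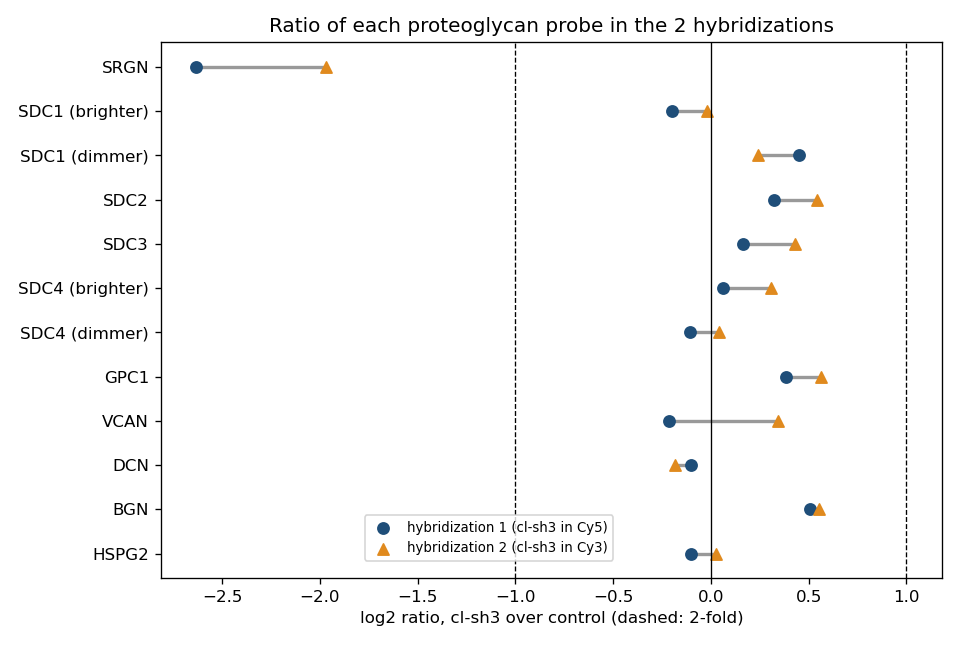
Log2 ratio of cl-sh3 over control for each proteoglycan probe (rows) in hybridization 1 (circles) and hybridization 2 (triangles), with the distance between them as a grey bar and 2-fold as dashed lines. SRGN lies beyond the left line in both hybridizations, at -2.63 and -1.97, and the other 11 probes lie between -0.22 and 0.56.

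In all, 1 of the 12 probes was at least 2-fold lower and 0 were higher, where over all probes 0.394% were lower and 0.122% higher. The 1 is SRGN, whose fall chose the set, so the count is no result. The 11 remaining probes had mean log2 ratios between -0.14 and 0.53, a median of 0.18 and no change above 1.45-fold. By any amount, 6 of these probes, which stand for 9 genes, were higher in both hybridizations, 2 were lower and 3 had opposite signs. Over all probes, 29.8% were higher and 27.3% lower by any amount.

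**Figure D3:**
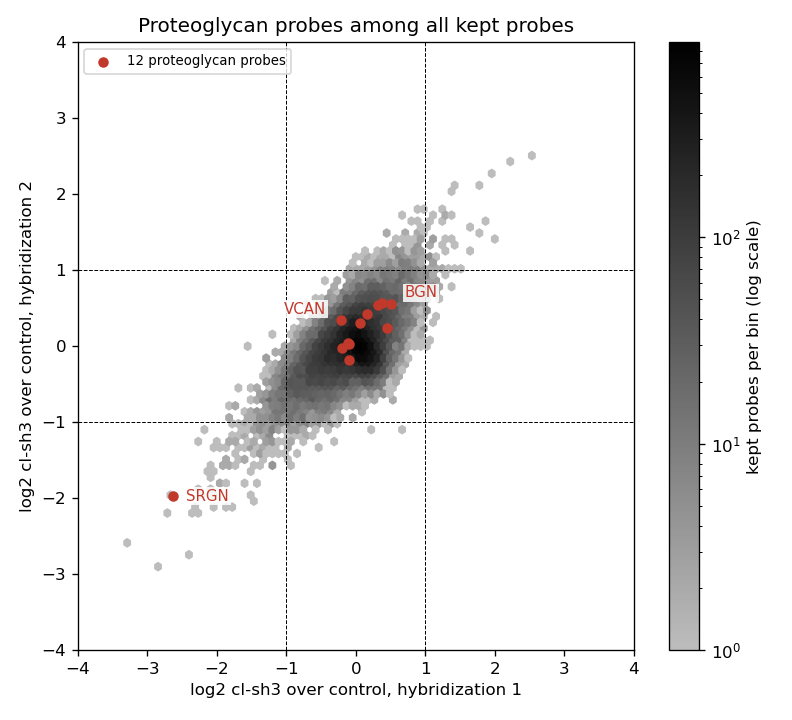
Log2 ratio of cl-sh3 over control in hybridization 1 (horizontal) against hybridization 2 (vertical) for the 36060 kept probes, as bins shaded by their number on a log scale, with the 12 proteoglycan probes in red and 2-fold as dashed lines. SRGN lies at the lower left edge of the cloud, among the 142 probes at least 2-fold lower in both. The other members lie inside the dashed lines, with BGN towards the upper right and VCAN above and to the left of the diagonal.

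The genes around the core proteins were read from 10 lists with 148 genes. The lists were written from general knowledge of proteoglycan biology, but with earlier results of these data known, so their counts are a description. All had a probe, 144 had a kept one, and each was represented by its brightest kept probe. Of the 144 genes, 1 was at least 2-fold lower (0.694%) and 0 were higher, where 0.514% of all 16153 named genes were lower and 0.136% higher. By any amount, 27.8% of the list genes were lower in both hybridizations and 37.5% were higher, against 28.4% and 30.9% of all named genes. These shares of all named genes also belong beside the counts of each list below. Their median log2 ratio was 0.04, and that of all named genes was 0.01. Apart from 1 growth factor, the genes named here from these lists did not reach 2-fold in both hybridizations by their brightest probe and are given by their values.

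The gene that fell was FGF2, a growth factor that needs heparan sulfate to bind its receptor. Its normalised signal was 2840 in cl-sh3 against 6352 in the control, then 2569 against 5458. Both cl-sh3 values lay below both control values, and the log2 ratios of -1.16 and -1.09 gave a mean 2.18-fold lower. It stood at the low end of the 17 heparin-binding ligands, of which 6 were lower and 3 higher in both hybridizations by any amount, with a median of -0.03. Close above it, and named after their values were seen, were the chemokine CXCL8 (-1.05 and -0.84) and the angiogenic factor VEGFA (-0.91 and -0.87), which just missed the rule. The other 3 probes of VEGFA had means between -0.92 and -0.25. The highest of the list was HBEGF, a ligand of the EGF receptor, at 0.22 and 0.61.

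Other core proteins made a list of 32 genes, of which 28 had a kept probe. Their median was 0.01, with 9 higher and 7 lower in both hybridizations by any amount. The lowest was thrombomodulin (THBD), an anticoagulant receptor of the cell surface, at -1.01 and -0.60. The highest was the TGF-beta co-receptor TGFBR3, whose ratios of 0.99 and 0.22 lay far apart. AGRN, the core protein of agrin, is a heparan sulfate proteoglycan of basement membranes like perlecan, and stood at 0.46 and 0.48 (chosen after its values were seen).

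Every glycosaminoglycan chain of the members is built on the same short linker of sugars. Of the 6 genes for this linker, 5 were higher in both hybridizations by any amount and 1 had opposite signs. Of all named genes, 30.9% were higher by that loose reading, which also counts rises close to 0. The median of the 6 was 0.17. This median came mainly from hybridization 2, where it was 0.30, against 0.01 in hybridization 1. The highest was the glucuronyltransferase B3GAT3, at 0.01 and 0.52, and the lowest was the xylose kinase FAM20B, at -0.17 and 0.21.

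The 20 genes that build and sulfate heparan sulfate had a median of 0.04. The lowest was the sulfotransferase HS6ST2, at -0.89 and -0.90, but its dimmer probe gave a mean of 0.04. The highest was the sulfotransferase HS2ST1 at 0.99 and 0.92, but its other 3 probes had means between -0.18 and 0.25. Both extremes of this list thus rest on 1 probe of a gene whose other probes stood near 0. HS3ST1, which makes the chains that bind antithrombin, had a single probe at 0.92 and 0.76 (chosen after its values were seen).

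For chondroitin and dermatan sulfate, the chains of versican, decorin and biglycan, the 16 genes had a median of -0.04. The lowest was the chain polymerase CHSY1, at -0.79 and -0.59. The highest was the sulfotransferase CHST12, at 0.19 and 0.56.

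The 11 genes that make and carry the sugar and sulfate donors had a median of 0.10, and as many were higher as lower by any amount, 4 each. SLC35B3, a Golgi transporter of the sulfate donor, was the lowest at -0.99 and -0.87, just short of the rule. PAPSS2, which makes that donor, was the highest at 0.25 and 0.70.

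The 17 genes that edit or break down the chains had a median of 0.09, from the lysosomal glucuronidase GUSB (-0.47 and -0.22) to the sulfatase SGSH (0.28 and 0.59). The 12 genes that cut or shed core proteins had a median of 0.07. Their extremes were both secreted proteases that cleave versican and related cores. ADAMTS1 was the lowest at -1.20 and -0.63, and its second probe had a mean of -0.84. ADAMTS5 was the highest at 0.48 and 0.78.

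Hyaluronan, the chain that versican binds, was covered by 9 genes with a median of 0.09. The hyaluronan receptor HMMR, which also acts in mitosis, was the lowest at -0.88 and -0.63, and the synthase HAS3 was the highest at 0.20 and 0.60. The dimmer probe of HAS3 gave a mean of 0.01. The 8 proteins that bind the inner tail of syndecans had a median of 0.04, from the adaptor SDCBP (-0.39 and -0.18) to GIPC1 (0.31 and 0.36). In that list the brightest probe of EZR, which links the membrane to actin, gave -0.20 and 0.30, while its dimmer probe (A_24_P290481) rose, with 1.63 and 1.28. The probes of EZR thus disagree, and no direction is given for the gene.

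**Figure D4:**
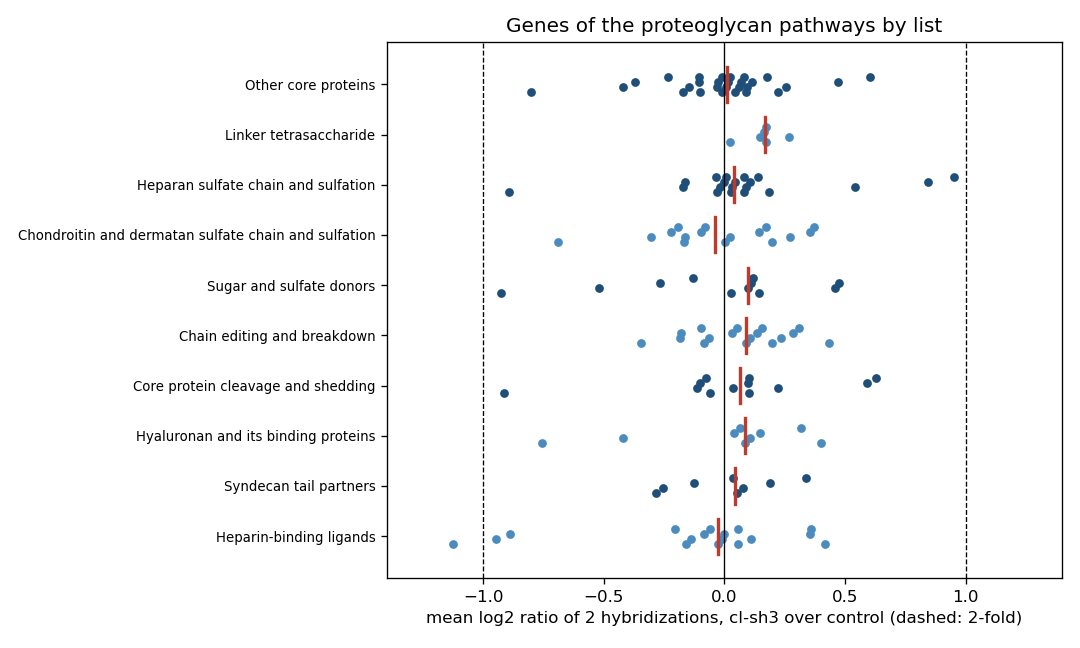
Mean log2 ratio of cl-sh3 over control for each gene (points, brightest kept probe) in the 10 proteoglycan pathway lists (rows), with the list median in red and 2-fold as dashed lines. The medians lie between -0.04 and 0.17, and FGF2, at -1.12, is the point left of the dashed line.

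Serglycin is known from blood cells, and the matrix members from fibroblasts, so markers of other cell types were read beside them. Of 13 blood cell markers, SPI1 was not well above background, and 0 of the remaining 12 reached 2-fold. Their summed normalised signal was 10387 and 8792 in cl-sh3 against 8656 and 8225 in the control. The sum leans on the brighter probes, such as that of ITGAM, with 3316 and 2280 in cl-sh3 against 2346 and 2488 in the control. By any amount, 4 of the 12 were higher in both hybridizations, 2 were lower and 6 had opposite signs. Of all named genes, 30.9% were higher and 28.4% lower. PTPRC, the pan-leukocyte marker, gave 0.04 and -0.08. By mean, the receptor KIT was the highest at 0.62 and 0.75, and MPO was the lowest at -0.01 and -0.25. Fibroblast markers, with PDGFRB not well above background, summed to 3455 and 3245 in cl-sh3 against 3611 and 3391 in the control. Endothelial markers summed to 2616 and 2034 against 2263 and 2397. The part of other cells in these signals was not tested.

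RUNX2 binds the word TGTGGT or TGCGGT, and the 250 bases before each annotated start were searched for it on both strands. RefSeq promoters of GRCh38.p14 gave 8 windows for 7 of the 10 genes, and SRGN, SDC2 and DCN were not matched. SDC1 and VCAN had a word each, and over all 35116 promoters 16.3% had either word. The surroundings are shown because they hold the letters that RUNX2 reads, with the word in capitals as it stands on the opposite strand.
SDC1, chr2:20225297-20225326, minus strand, 184 to 179 bases before 1 of its starts: cggcttgcggggACCACAgctcccgaaagc
VCAN, chr5:83471537-83471566, plus strand, 195 to 190 bases before its start: caggcggtccctACCGCAggcgcggggagc
Neither gene changed at least 2-fold. These matches are a description of letters and not of binding.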

How the data were processed

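RNA of cl-sh3 and of the control clone was compared in 2 hybridizations of 1 dye swap, treated as 1 replicate on the assumption that both used the same RNA. The authors deposited the intensity of each spot (median pixel values and local background), the scanner software's flags and log10 ratios, and a table of log10 ratios. The file headers name Feature Extraction 10.5.1.1, whereas the submitters' processing notes name 8.5.1.1. Intensities were corrected with normexp (offset 50, which draws dim ratios towards 0) in limma 3.58.1 under R 4.3.3. Control spots and spots with outlier flags (153 and 144) were left out, each array was normalized by loess, and the log2 ratio of cl-sh3 to control was taken, with its sign turned where the dyes were swapped. A probe was kept when the same RNA, of either clone, passed the software's flag for signal well above background on both arrays. The 2-fold rule follows the study's methods.

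The files give no symbols, and a RefSeq table of GRCh38.p14 gave a name to 18023 of 18715 RefSeq accessions. NM_004348 was named through the study's supplementary gene list. Members, gene lists and tests were chosen with earlier results of these data known. Named genes are all member and RUNX2 probes, the extremes and 2-fold changes of each pathway list, and SRGN's 3 nearest named probes on either side. Of the marker lists, the extremes are named for carcinoma and blood cells only. AGRN, HS3ST1, CXCL8, VEGFA, EZR, PTPRC, EPCAM and ITGAM lie outside these choices and were picked after their values were seen. Steps were tested on simulated data. Python 3.11.15, pandas 2.3.3 and numpy 2.4.6 were used. The number of arrays limits the precision.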

Additional observations from a re-analysis of the deposited data

How the results depend on the processing

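SRGN stayed at least 2-fold lower in both hybridizations under every alternative, with mean log2 ratios between -2.39 and -2.23 over 7 other ways of processing, and the counts of 1 lower and 0 higher member probe held in all of them, in each hybridization alone and with other filters. Of 84 other values of the 12 probes, 75 moved by less than 1 SD of the probe's 2 hybridizations and 9 by more, and 4 changed sign, 3 of them for the dimmer SDC4 probe and 1 for HSPG2. Over all probes, 142 were lower and 44 higher (76.3% lower). Median centring in place of loess gave 124 lower and 77 higher (61.7% lower). The software's log ratios gave 253 and 103, the deposited ratios 251 and 103, and the 2-fold rule on the mean of both hybridizations 250 and 93. A single hybridization gave between 196 and 506 lower and between 88 and 219 higher, with 506 and 88 in hybridization 1 and 196 and 219 in hybridization 2. Aquantile normalization leaves ratios as they are, so its values for the 12 probes could not move. The deposited ratios nearly repeat the software's log ratios, with a mean of -2.39 for SRGN in both. Both are counted among the sign changes of the dimmer SDC4 probe, so the 7 ways are not all separate checks. FGF2 held its call in all 7 other ways of processing. With hybridization 1 alone, list genes at least 2-fold lower became 2 among heparin-binding ligands, 1 among other core proteins and 1 among cleavage genes. List medians that changed sign at least once were those of other core proteins, chondroitin sulfate, donors, breakdown, syndecan tail and endothelial genes, all of which stayed between -0.14 and 0.18. Each log2 ratio pairs the clones within an array, but with 1 replicate no test over the pairs was made. Dim probes give ratios drawn towards 0, and 1 clone of each kind limits every value.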
